A study of Mus musculus with 10 samples.

Results

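Day 6 somatic cells were compared with the undifferentiated embryonic stem cells (ESCs) from which such cells arise. ESCs left to aggregate without the cytokine that maintains them form small balls, embryoid bodies (EBs). In these the cells pass through states like those of the gastrulating embryo. The somatic cells are EB cells sorted as negative for both markers by which the germ cell-like fraction was picked out. Other EB cells that carried either marker were thus left out too, and the somatic samples are not the whole of the remaining EB. A fall or a low signal of a gene expressed in such cells may be in part set by the sort. The arrays were taken by their sample labels and comprised 6 of the 10 arrays in the series: 2 ESC arrays and 4 somatic arrays, of which 2 came from the V6.5 line and 2 from the *Oct4-Gfp* line. V6.5 is a 129xBL6 F1 ESC line, and the *Oct4-Gfp* line, of mixed background, carries a green fluorescent reporter driven by Oct4 regulatory sequence. The ESCs were V6.5 cells sorted as positive for the receptor cKit and the surface sugar SSEA1, and had been kept on mouse embryonic fibroblast feeders. The V6.5 somatic cells came from EBs at day 6 and were sorted as negative for both markers. The *Oct4-Gfp* somatic cells were sorted as negative for cKit and for the reporter. The other 4 arrays held the sorted germ cell-like cells of the same EBs (iPGCs), 2 arrays for each line, and entered only the shared estimate of the spread and a side comparison. ESCs of the *Oct4-Gfp* line were not among the arrays, so that in the mean over both lines the cell type and the line cannot be told apart, and each result was therefore also taken within V6.5 alone.

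In the mouse embryo, pluripotent cells of the epiblast are held in that state by a network of transcription factors around Oct4, *Sox2* and *Nanog*. At gastrulation these cells leave the epiblast through the primitive streak under *Nodal*, Wnt and BMP signals, lose their epithelial junctions and become mesoderm or endoderm. Mesoderm formed at the posterior end of the streak gives rise to the allantois, the first blood and vessels and the lateral plate with the heart, whereas mesoderm formed later and nearer the midline gives rise to somites. ESCs correspond to the naive epiblast before implantation, in which factors such as *Esrrb* and *Klf4* are expressed in addition to the core network.

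Each array gave 1 signal per probe set, scaled by the authors to a common trimmed mean, and a change is given as a log2 difference with its standard error, somatic cells minus ESCs, on log2 of the signal plus an offset of 14.8 so that the smallest signals do not dominate. This scale understates the change of dim genes. A gene was read from its brightest probe set and was called when the adjusted p of the limma fit was under 0.05. Of 12208 genes tested, 3967 (32.5%) were higher and 4222 (34.6%) were lower in somatic cells. Requiring in addition a change of at least 3-fold left 1272 genes higher (10.4%) and 1090 lower (8.93%), and the median change over all genes tested was -0.02. Within V6.5 alone 3689 genes were higher (30.2%) and 3868 lower (31.7%), of which 3598 and 3777 were also called in the mean over both lines. No gene was called in opposite directions by the 2 comparisons. Every somatic array lay above both ESC arrays for 4500 genes (36.9%) and below both for 4809 (39.4%). Since about 2 in 3 genes were called, the counts of calls in each gene group below are to be read against these shares. A gene that is dim in ESCs and iPGCs could be tested only through somatic arrays on which it was high. Likewise, a gene that is dim in somatic cells and iPGCs could be tested only through ESC arrays on which it was high. Counts of rises and of falls among the genes tested are thus in part set by this filter and are given as a description.

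The arrays of a group resembled each other closely. Pearson's r over the log2 values of the probe sets tested was 0.988 for the ESC pair, 0.987 for the V6.5 somatic pair, 0.980 for the *Oct4-Gfp* somatic pair and on average 0.974 between somatic arrays of different lines, against 0.786 between somatic and ESC arrays. The ratio of 3' to 5' Gapdh signal, a measure of RNA integrity and amplification, was 1.28 to 1.30 on the ESC arrays and 1.65 to 2.05 on the somatic arrays. With this ratio as a covariate the probe sets called numbered 5519 higher and 4276 lower, in place of 8852 (33.6% of 26372) and 7844 (29.7%). The median standard error then rose from 0.171 to 0.299. Since the ESC and somatic ratios did not overlap, this covariate and the cell type cannot be fully told apart. A call lost under it may reflect this lower precision. The labels do not say whether replicates are separate cultures, so p-values measure the spread between arrays, which may be technical. The signal below which a probe set was taken as background, set from olfactory receptor probe sets, was 12.6 to 25.4 on these 6 arrays. Where every array of a group was below it, the fold is given as a lower bound ("at least"), with that group set at its background. Since the samples are bulk, fewer cells of a type and less RNA per cell cannot be told apart.

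Most of the pluripotency network was lost. Of 14 core pluripotency genes tested 11 fell, each by more than 3-fold, against 34.6% of all genes tested, none rose, and the median change was -4.98 (1 was called higher under quantile normalization, with an intensity trend in limma or with the Gapdh ratio as a covariate). *Pou5f1*, which encodes Oct4, had signals of 5335 and 6505 in ESCs, 9.19 and 70.7 in V6.5 somatic cells and 63.9 and 107 in *Oct4-Gfp* somatic cells (log2 change -6.47 ± 0.44, adjusted p = 1.12e-05). The *Oct4-Gfp* cells had been sorted against a *Pou5f1* reporter, so their *Pou5f1* level was in part fixed by the sort. The V6.5 cells had been sorted against SSEA1 instead, and there the change was -7.03 ± 0.51 (adjusted p = 2.09e-05). The paper reports that this surface marker and the reporter, each combined with cKit, pick out the same cells. The V6.5 level may therefore also be in part fixed by the sort, and how far was not tested. The homeobox factor *Nanog* had signals of 6724 and 6419 in ESCs, 100.5 and 188 in V6.5 and 226 and 389 in *Oct4-Gfp* somatic cells, a change of -4.91 ± 0.26 (adjusted p = 3.27e-06). *Sox2*, the partner of Oct4 on its target sites, went from 5243 and 5308 to 114 and 198 in V6.5 and 603 and 229 in *Oct4-Gfp* cells. All 4 somatic arrays were thus far below both ESC arrays for the 3 central factors, yet *Nanog* and *Sox2* stayed above background on every somatic array.

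Among the other core genes, *Gdf3*, a TGF-beta ligand of pluripotent cells, was 2683 and 2749.9 in ESCs and 12.3 to 19.5 over the 4 somatic arrays (-6.45 ± 0.16, adjusted p = 2.52e-07). *Fgf4*, the growth factor that drives ESCs out of the naive state, was 5615 and 5854 in ESCs and 28.5 to 96.9 in somatic cells (-6.47 ± 0.18, adjusted p = 3.72e-07). *Utf1*, a chromatin protein of pluripotent cells, was 3258 and 3271 in ESCs and 17.0 to 57.6 in somatic cells (-6.14 ± 0.21, adjusted p = 6.22e-07). *Dnmt3l*, a cofactor of de novo DNA methylation, fell by 6.13 ± 0.27 and the LINE-1 derived gene *L1td1* by 5.05 ± 0.21. *Dppa2* and *Dppa4*, a pair of chromatin proteins encoded side by side, fell by 5.60 ± 0.40 and 4.39 ± 0.17. *Tdgf1*, the *Nodal* co-receptor, had ESC signals of 10743 and 11534 and was the least even of the core genes, at 76.0 and 234 in V6.5 and 76.0 to 2683 over all somatic arrays, the second *Oct4-Gfp* array being highest (-4.81 ± 0.68, adjusted p = 0.000483).

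The 3 core genes that were not called kept high signals in the somatic cells. *Sall4*, a zinc finger factor needed for pluripotency and also used in early mesoderm and limb, had signals of 6906 and 6726 in ESCs, 7132 and 7494 in V6.5 and 8125 and 8821 in *Oct4-Gfp* somatic cells (log2 change 0.21 ± 0.11, adjusted p = 0.124). *Lin28a*, the RNA-binding protein that blocks maturation of let-7, was 6397 and 6699 in ESCs, 5704 and 6068 in V6.5 and 6204 and 5849 in *Oct4-Gfp* cells (-0.14 ± 0.11, adjusted p = 0.29). *Trim71*, an RNA-binding ubiquitin ligase that is itself a let-7 target, was 3838 and 4031 in ESCs, 4149 and 4360.2 in V6.5 and 4484 and 3379 in *Oct4-Gfp* cells (0.05 ± 0.16, adjusted p = 0.808). The signs of these small changes depended on the scaling: under median centring *Sall4* and *Trim71*, and under quantile normalization *Lin28a*, changed sign.

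Genes of the naive state fell with a single exception. Of 16 naive pluripotency genes 15 fell, all by more than 3-fold and all also within V6.5 alone, with a median change of -5.12. *Esrrb*, an orphan nuclear receptor of the naive network, was 5974 and 5559 in ESCs, 22.2 and 59.1 in V6.5 and 52.4 and 43.7 in *Oct4-Gfp* somatic cells (-6.66 ± 0.24, adjusted p = 7.47e-07). *Tfcp2l1*, a factor downstream of the cytokine LIF, was 3307 and 2948 in ESCs, 37.5 and 40.6 in V6.5 and 69.7 and 58.6 in *Oct4-Gfp* cells (-5.59 ± 0.14, adjusted p = 2.52e-07). *Tcl1*, an activator of the kinase Akt, fell to background on all 4 somatic arrays and was at least 87.0-fold lower, and the nuclear receptor gene *Nr0b1* was at least 63.7-fold lower by the same measure. *Zfp42* (Rex1), the classic marker of naive ESCs, fell by 5.38 ± 0.32, *Fbxo15* by 5.84 ± 0.21 and *Nr5a2* by 5.14 ± 0.18. *Dppa3* (Stella), a maternal factor that is also a germ cell marker, was 3394 and 3947 in ESCs and 52.3 to 121 in somatic cells. *Dppa5a*, an RNA-binding protein gene of ESCs and oocytes, was 13418 and 14746 in ESCs and 229.8 to 660.5 in somatic cells.

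The Krüppel-like factors of this list fell: *Klf2* by 4.31 ± 0.13, *Klf5* by 4.61 ± 0.17 and *Klf4* by 3.54 ± 0.30, the last keeping signals of 513 and 325 in V6.5 and 223 and 476 in *Oct4-Gfp* somatic cells. The adhesion gene *Jam2* fell by 5.10 ± 0.12, the LIF feedback inhibitor *Socs3* by 2.88 ± 0.20 and the homeobox gene *Gbx2* from 281 and 205 to 13.5 to 26.4. The single exception was *Tbx3*, a T-box factor of naive cells that is also used in heart and limb mesoderm. Its signals were 1148 and 1136 in ESCs, 1768 and 1699.7 in V6.5 and 2308 and 2488 in *Oct4-Gfp* somatic cells, a rise of 0.83 ± 0.14 (adjusted p = 0.00144) that was not called with the Gapdh ratio as a covariate.

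**Figure D1:**
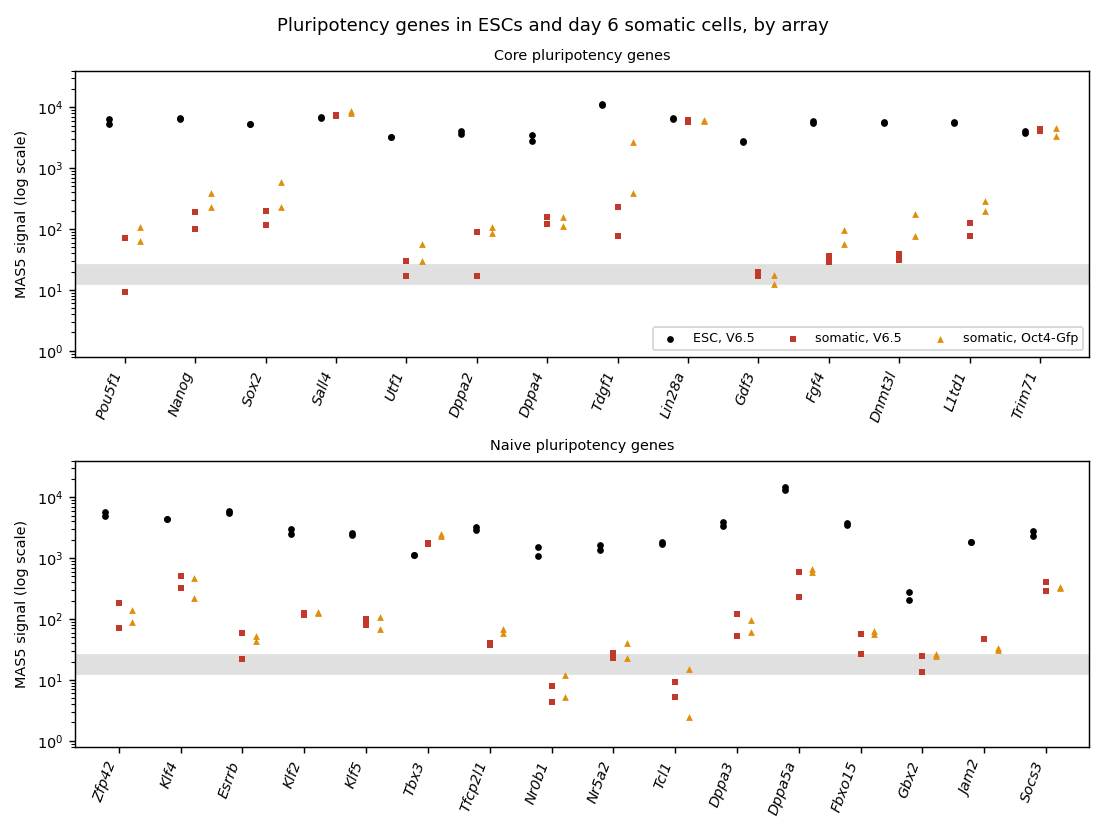
MAS5 signal (log scale) of each core (top) and naive (bottom) pluripotency gene on the 2 ESC, 2 V6.5 somatic and 2 Oct4-Gfp somatic arrays, 1 point per array, with the range of array backgrounds in grey. Most somatic points lie far below the ESC points, whereas those of Sall4, Lin28a and Trim71 lie at the ESC level and those of Tbx3 above it.

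Genes of the primed epiblast, the state that follows implantation, were divided. Of 10 tested 5 fell, 2 rose and 3 were not called. *Otx2*, a factor of the early epiblast and later of the forebrain, fell from 448 and 387 to 37.4 to 140.1 (-2.19 ± 0.36, adjusted p = 0.00101). *Zic2* fell by 1.93 ± 0.16, the junction gene *Cldn6* by 2.75 ± 0.24 and *Foxd3* was at least 4.68-fold lower. The de novo methyltransferase gene *Dnmt3b* kept much of its signal, 4188 and 3865 in ESCs against 2251 and 2094 in V6.5 and 3313 and 4052 in *Oct4-Gfp* somatic cells (-0.51 ± 0.15, adjusted p = 0.0188). *Lef1*, a nuclear effector of Wnt signalling, rose from 637 and 656 to 2539 to 3325 (2.16 ± 0.25, adjusted p = 0.000155) and *Sall2* from 221 and 172 to 1581 to 1838 (3.01 ± 0.34, adjusted p = 0.000143). *Fgf5*, the usual marker of the primed epiblast, was 43.7 and 22.5 in ESCs, 15.9 and 13.1 in V6.5 and 37.7 and 186 in *Oct4-Gfp* cells and was not called (adjusted p = 0.759); a single *Oct4-Gfp* array stood above the rest.

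LIF, which acts through gp130 and *Stat3*, is the cytokine that maintains ESCs. Of 10 genes of the LIF pathway 5 fell and 3 rose. *Bcl3*, a target of the LIF effector *Stat3*, fell from 929 and 948 to 80.6 to 192 (-2.76 ± 0.19, adjusted p = 1.08e-05), and the interferon-inducible membrane protein gene *Ifitm3* from 8433 and 9148 to 2263 to 2621 (-1.84 ± 0.14, adjusted p = 1.71e-05). The kinase gene *Pim1* fell by 1.32 ± 0.13, *Pim3* by 0.81 ± 0.14 and *Stat3* by 0.82 ± 0.16. The receptor genes were not lower: *Il6st*, encoding the shared subunit gp130, rose by 1.11 ± 0.14 (adjusted p = 0.000291), and *Lifr* rose by 0.53 ± 0.11 (adjusted p = 0.00427) but was not called within V6.5 alone or when all its probe sets were averaged. *Jak1* rose by 0.45 ± 0.16 (adjusted p = 0.0335). Of the 3 rises only 1 was called under median centring, with the Gapdh ratio as a covariate or with probe sets averaged.

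Of 9 genes of the *Nodal* and activin pathway 6 fell and 2 rose, with a median change of -3.00. *Lefty1*, a secreted *Nodal* inhibitor, was 3408 and 4146 in ESCs and below background on every somatic array (2.52 to 21.6), a fall of at least 185-fold. Its paralogue *Lefty2* was 5411 and 5317 in ESCs, 49.0 and 159.9 in V6.5 and 192 and 176 in *Oct4-Gfp* cells (-5.22 ± 0.39, adjusted p = 1.67e-05). *Nodal* itself fell from 1813 and 1627 to 109 to 356 (-3.00 ± 0.29, adjusted p = 6.02e-05), and the activin subunit genes *Inhbb* and *Inhba* fell by 4.09 ± 0.38 and 1.17 ± 0.29. A second probe set of *Inhbb* changed less (-0.66, adjusted p = 0.0209). Ligand, inhibitors and the co-receptor *Tdgf1* were therefore all lower. The second co-receptor gene, *Cfc1* (Cryptic), moved the other way, from 37.8 and 16.7 in ESCs to 2144 and 1201 in V6.5 and 1130.0 and 2032 in *Oct4-Gfp* somatic cells (5.27 ± 0.32, adjusted p = 5.97e-06). *Fst*, encoding the activin antagonist follistatin, rose by 0.96 ± 0.27 (adjusted p = 0.0151), a call lost without ESC replicate 2, which left 1 rise.

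The 10 largest falls over all genes took in 5 of the genes above, *Lefty1*, *Esrrb*, *Pou5f1*, *Fgf4* and *Gdf3*. The others were *Mymx*, a gene for a small membrane protein known from myoblast fusion (7080.0 and 7069.7 in ESCs, 11.1 to 40.4 in somatic cells, -7.35 ± 0.28, adjusted p = 8.93e-07), the actin nucleator gene *Cobl* (4739 and 4182 in ESCs and 8.72 to 25.7 in somatic cells), the oocyte gene *Ooep* (7012 and 7483 in ESCs and 21.5 to 76.0 in somatic cells), the testis proteasome subunit gene *Psma8* and the germline ATPase gene *Morc1*. *Psma8* and *Morc1* were below background on all 4 somatic arrays and were at least 76.8-fold and 109-fold lower. Of 11 germ cell genes tested 7 fell by more than 3-fold, 1 rose and 3 were not called. Among the falls were *Ddx4* (Mvh, 805 and 656 in ESCs, 11.3 to 27.6 in somatic cells), *Dazl* (at least 8.09-fold lower) and *Prdm14* (at least 33.8-fold lower). Others were *Dnd1* (-3.26 ± 0.33, adjusted p = 8.24e-05), *Prdm1* (Blimp1, -2.21 ± 0.31, adjusted p = 0.000452) and *Tfap2c* (5055 and 5157 against 1038 to 1931). The seventh was *Kit* (701 and 627 in ESCs, 134 to 261 in somatic cells), against whose product the somatic cells were sorted, so that its fall is no finding. The integrin gene *Itgb3* rose by 1.89 ± 0.30. Of the genes for the fucosyltransferases that can make SSEA1, *Fut9* was at least 14.3-fold lower and *Fut4* was higher (32.9 and 21.2 against 136 to 261).

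The epithelial character of ESCs was reduced and that of mesenchyme was raised. Of 14 genes of epithelial junctions 11 fell by more than 3-fold and 3 rose, and all 14 genes of the mesenchymal transition rose, 8 of them by 3-fold or more. *Cdh1*, encoding E-cadherin, was 6975 and 7476 in ESCs, 356 and 371 in V6.5 and 315 and 924 in *Oct4-Gfp* somatic cells (-3.98 ± 0.35, adjusted p = 3.72e-05). *Cdh2*, encoding the N-cadherin that replaces it in mesoderm, was 75.9 and 74.7 in ESCs, 2189.7 and 2825 in V6.5 and 2679 and 1994 in *Oct4-Gfp* cells (4.74 ± 0.16, adjusted p = 5.85e-07). *Epcam* fell from 6194 and 6588 to 521 to 1396, the splicing regulator gene *Esrp1* from 977 and 985 to 58.3 to 404, and the tight junction genes *Cldn4*, *Tjp3*, *Crb3* and *Cldn7* by 4.61, 4.05, 3.81 and 3.76. For *Cdh1*, *Epcam* and *Esrp1* the second *Oct4-Gfp* array had the highest somatic signal, still below both ESC arrays.

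The 3 risers among the epithelial genes were the keratins of simple epithelia. *Krt8* went from 472 and 549 to 7221 to 7933 (3.88 ± 0.21, adjusted p = 3.46e-06), its partner *Krt18* from 1012 and 841 to 10173 to 11090.2 (3.49 ± 0.23, adjusted p = 8.87e-06) and *Krt19* from 641 and 680.1 to 1617 to 2246 (1.55 ± 0.20, adjusted p = 0.000298). The somatic ranges of all 3 were narrow and lay wholly above the ESC signals. Among the repressors of E-cadherin, *Snai2* (Slug) was 16.0 and 18.7 in ESCs, 7338 and 6035 in V6.5 and 5455 and 6835 in *Oct4-Gfp* somatic cells (7.64 ± 0.44, adjusted p = 4.62e-06), one of the 10 largest rises over all genes. *Zeb2* was at least 59.9-fold and *Twist2* at least 81.8-fold higher, with ESC signals of 9.32 and 4.60 and 3.98 and 3.09 at background. *Snai1* rose by 3.06 ± 0.21, *Zeb1* by 4.07 ± 0.19 and *Twist1* by 3.62 ± 0.34. *Vim*, encoding the intermediate filament vimentin, was already 4986 and 4819.5 in ESCs and was 10472 to 11313 in somatic cells (1.13 ± 0.17, adjusted p = 0.000565), and the matrix gene *Fn1* rose by 0.38 ± 0.12 (adjusted p = 0.027).

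**Figure D2:**
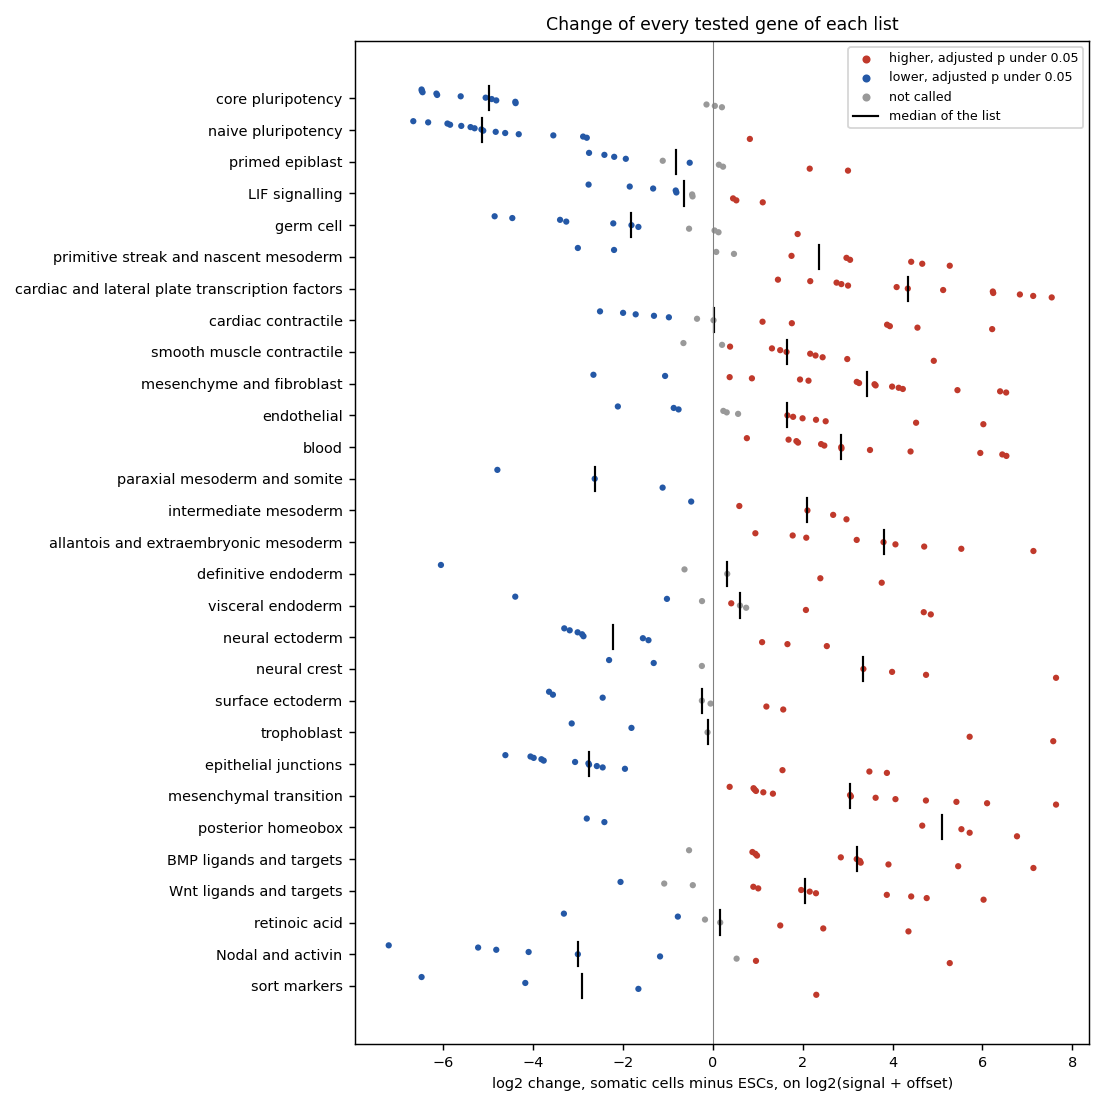
Log2 change of each tested gene of 29 gene lists, somatic cells minus ESCs, on log2(signal + offset); 1 point per gene, red for higher and blue for lower at an adjusted p under 0.05, grey for not called, with the list median as a black line. The pluripotent, epithelial and neural lists lie mostly left of 0 and the lateral plate, mesenchyme, blood and allantois lists mostly right of it.

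Transcription factors of the heart and lateral plate were higher in somatic cells. Of 15 on the array 13 were tested, and all 13 rose, 12 by 3-fold or more, all also within V6.5 alone, with a median change of 4.34. *Foxf1*, the forkhead factor of lateral plate and extraembryonic mesoderm, was 7.47 and 30.8 in ESCs, 5873 and 6375 in V6.5 and 5653 and 5777 in *Oct4-Gfp* somatic cells (7.54 ± 0.32, adjusted p = 1.28e-06). *Tbx20*, a T-box factor of the heart and lateral plate, was 34.7 and 29.6 in ESCs, 6239.8 and 6757 in V6.5 and 7100.0 and 6145 in *Oct4-Gfp* cells (7.13 ± 0.20, adjusted p = 3.97e-07). *Hand1*, a helix-loop-helix factor of extraembryonic and lateral mesoderm and the left ventricle, was 16.9 and 42.7 in ESCs, 5716 and 5593 in V6.5 and 4412 and 3913 in *Oct4-Gfp* cells (6.83 ± 0.23, adjusted p = 6.12e-07). Its relative *Hand2*, used in the second heart field and limb bud, was below background in ESCs and reached 992 to 1467 in somatic cells, at least 77.2-fold higher.

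The GATA factors of the heart and its surrounding mesoderm rose too. *Gata6* was 4.80 and 22.3 in ESCs and 1582 to 2268 in somatic cells (6.23 ± 0.27, adjusted p = 1.34e-06), *Gata4* 24.2 and 55.6 in ESCs and 742 to 994 in somatic cells (4.09 ± 0.24, adjusted p = 4.96e-06), and *Gata5* 25.5 and 14.6 in ESCs and 168 to 306 in somatic cells (2.86 ± 0.28, adjusted p = 6.2e-05). *Isl1*, the marker of the second heart field, was 26.1 and 0.323 in ESCs, 617 and 918 in V6.5 and 1133 and 823 in *Oct4-Gfp* cells (5.13 ± 0.40, adjusted p = 2.09e-05). *Tbx2* rose by 4.34 ± 0.21, *Mef2c* was at least 9.44-fold and *Tbx5* at least 6.28-fold higher, and *Myocd*, the coactivator of muscle genes, rose by 2.17 ± 0.23. *Smarcd3*, a chromatin remodelling subunit of the heart, rose by 1.45 ± 0.34, the only rise in this list below 3-fold. The remaining 2 genes on the array were too dim to test: *Nkx2-5*, the cardiomyocyte homeobox gene, had signals of 2.45 and 5.67 in ESCs and 4.72 to 19.3 in somatic cells, at or near background throughout, and *Irx4* had 40.9 and 60.0 in ESCs and 54.8 to 145 in somatic cells.

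Contractile genes of cardiac muscle did not follow their transcription factors as a group. Of 13 tested 6 rose and 5 fell, with a median change of 0.02. *Tnnt2*, cardiac troponin T, was 8.10 and 9.28 in ESCs, 2134 and 925 in V6.5 and 2000.2 and 2263 in *Oct4-Gfp* somatic cells, at least 114-fold higher. *Tnnc1*, troponin C of heart and slow muscle, rose from 89.6 and 157 to 1659 to 2416 (3.94 ± 0.43, adjusted p = 0.000111), *Tnni1*, the embryonic troponin I, to 702 to 1647 (4.55 ± 0.24, adjusted p = 2.88e-06), and *Actc1*, cardiac alpha-actin, from 18.6 and 5.97 to 302 to 410.0 (3.88 ± 0.32, adjusted p = 2.63e-05). *Ryr2* and *Myh7* rose by 1.76 ± 0.19 and 1.11 ± 0.26, to signals of 101 to 115 and 80.4 to 104. Genes of cardiac myosin heavy and light chains were among those that fell: the atrial light chain gene *Myl7* was 401 and 378 in ESCs, 85.9 and 6.97 in V6.5 and 33.6 and 228 in *Oct4-Gfp* cells (-2.50 ± 0.72, adjusted p = 0.0158), and *Myh6* was 137 and 67.6 in ESCs and 3.75 to 36.3 in somatic cells (-1.99 ± 0.43, adjusted p = 0.00428). *Myl2* fell from 119 and 149 to 55.1 to 67.3 and *Tnni3* from 188 and 254 to 58.1 to 110.2, and *Actn2* was at least 2.93-fold lower. Without ESC replicate 2 the falls in this list numbered 3, and without either ESC replicate 1 or 2 those of 3-fold or more numbered 1 in place of 3.

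The promoters of this list were searched because its members moved in different directions. In RefSeq sequence of build GRCm38.p6, the 250 bases before the annotated start held a CArG box, the site bound by serum response factor (searched by its consensus, which reads alike on both strands), in 3 of 17 cardiac contractile genes (17.6%), against 439 of 27025 genes (1.62%), and in none of 10 smooth muscle genes with a promoter in the table. The 3 windows are shown with the CArG box in capitals, 5′ to 3′ on the strand of the gene, all on the minus strand except *Myl3*.
*Actc1*, chr2:114052888-114052947: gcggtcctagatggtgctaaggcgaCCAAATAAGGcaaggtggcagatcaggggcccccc
*Myl7*, chr11:5898809-5898868: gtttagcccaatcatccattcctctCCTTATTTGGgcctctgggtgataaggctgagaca
*Myl3*, chr9:110763568-110763627: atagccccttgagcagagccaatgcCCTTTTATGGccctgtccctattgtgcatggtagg
The boxes began 47, 61 and 85 bases before the start. Of these genes *Actc1* rose, *Myl7* fell and *Myl3* was not called (85.7 and 57.0 in ESCs, 48.3 to 131 in somatic cells), so that genes with the box went in different directions. A match or its lack is a description of the sequence and says nothing of binding. Only exact matches to the consensus were counted. The smooth muscle genes *Tagln*, *Myh11* and *Actg2* had no promoter to search.

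Smooth muscle genes rose as a group. Of 11 tested 9 rose, 6 by 3-fold or more, and none fell, with a median change of 1.64. *Acta2*, smooth muscle alpha-actin, was 166 and 208 in ESCs, 7892 and 7656 in V6.5 and 5306 and 4196 in *Oct4-Gfp* somatic cells (4.92 ± 0.23, adjusted p = 1.8e-06). *Tagln* (SM22) was 246 and 276 in ESCs, 1617 and 1994 in V6.5 and 1615 and 928 in *Oct4-Gfp* cells (2.45 ± 0.22, adjusted p = 4.04e-05), *Cald1*, caldesmon, 805 and 798 in ESCs, 6669 and 6804 in V6.5 and 6801 and 5728 in *Oct4-Gfp* cells (2.99 ± 0.17, adjusted p = 4.64e-06), and *Csrp1* 1482 and 1580.1 in ESCs, 7619 and 7095 in V6.5 and 6383 and 6701 in *Oct4-Gfp* cells (2.17 ± 0.11, adjusted p = 3.13e-06). *Tpm1* and *Tpm2*, tropomyosins present in many cells, rose to 8326 to 9525 and 6514 to 7029 from ESC signals of 2941 and 3238 and of 2585 and 2762. *Actg2*, smooth muscle gamma-actin, was at least 5.71-fold higher, from 8.43 and 4.29 to 53.8 to 170.4. *Mylk*, myosin light chain kinase, rose from 31.7 and 36.5 to 116 to 160.5 (1.64 ± 0.34, adjusted p = 0.00322). Not all members rose: *Cnn1* was 136 and 136 in ESCs and 53.8 to 109.6 in somatic cells (adjusted p = 0.0505; it was called lower under several alternatives, among them leaving out *Oct4-Gfp* somatic replicate 1), *Des* was not called (0.21 ± 0.31, adjusted p = 0.581), and *Myh11* was too dim to test (31.7 and 27.2 in ESCs and 28.8 to 47.2 in somatic cells).

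Mesenchyme and fibroblast genes rose in 14 of 16 cases, 12 by 3-fold or more, with a median change of 3.43. *Pdgfra*, the receptor that marks nascent and paraxial mesoderm and mesenchyme, was 35.7 and 29.1 in ESCs, 5139.7 and 5041 in V6.5 and 2571 and 3619.7 in *Oct4-Gfp* cells (6.39 ± 0.18, adjusted p = 4.06e-07). The mesenchymal cadherin gene *Cdh11* was 21.9 and 36.1 in ESCs, 4691 and 4307 in V6.5 and 3458 and 3559 in *Oct4-Gfp* cells (6.53 ± 0.24, adjusted p = 7.43e-07). Among the fibrillar collagens, *Col1a1* was 119 and 149 in ESCs, 6508 and 6541 in V6.5 and 6859 and 5804 in *Oct4-Gfp* cells (5.44 ± 0.21, adjusted p = 9.33e-07), alike in both lines, whereas *Col3a1* was 41.7 and 40.3 in ESCs, 1868 and 1705 in V6.5 and 523 and 341 in *Oct4-Gfp* cells (3.99 ± 0.18, adjusted p = 1.69e-06) and thus about 4-fold higher in V6.5 than in *Oct4-Gfp* somatic cells. *Postn*, periostin, had the same order, 18.3 and 16.4 in ESCs, 1189 and 1132 in V6.5 and 367 and 234 in *Oct4-Gfp* cells, and so did *Col1a2* (84.5 and 110.3 in ESCs, 2010.0 and 2543 in V6.5 and 839 and 739 in *Oct4-Gfp* cells), although its difference between lines was not called (adjusted p = 0.249). *Pdgfrb* rose by 4.14 ± 0.22, *Col5a1* by 3.26 ± 0.17 and *Col6a1* by 3.20 ± 0.27. The 2 falls were *Thy1* (447 and 424 in ESCs, 107 to 299 in somatic cells) and *Lox* (at least 7.82-fold lower). *Thy1* and *Lox* are also expressed by fibroblasts of the kind on which the ESCs were grown, and whether feeder cells contributed to the ESC arrays was not tested; *Col1a1*, *Col3a1* and *Postn*, which such fibroblasts also express, were at 119 and 149, 41.7 and 40.3 and 18.3 and 16.4 there.

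**Figure D3:**
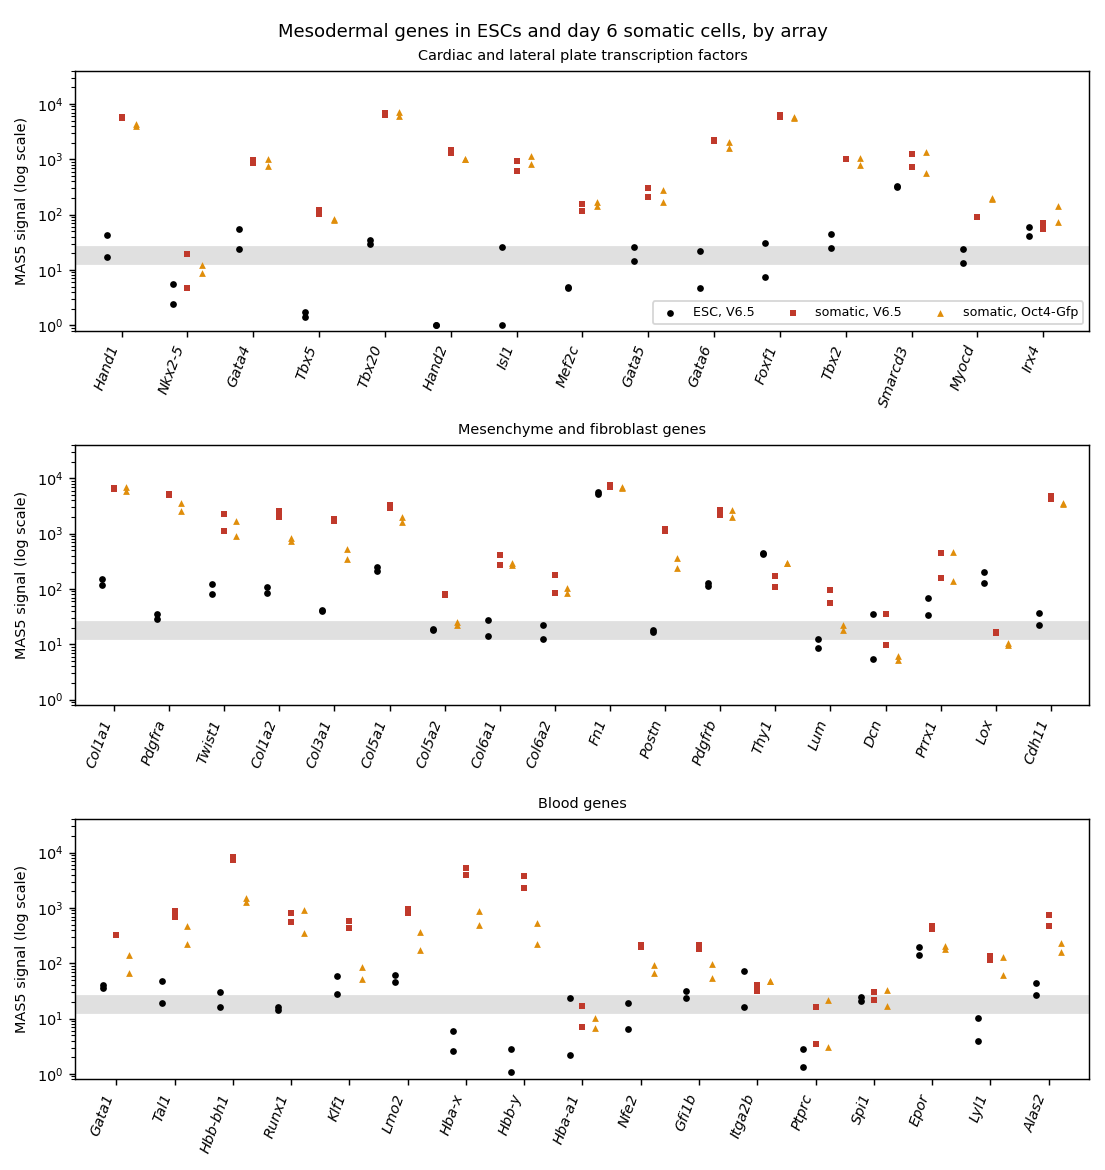
MAS5 signal (log scale) of cardiac and lateral plate transcription factors (top), mesenchyme and fibroblast genes (middle) and blood genes (bottom) on the 2 ESC, 2 V6.5 somatic and 2 Oct4-Gfp somatic arrays, 1 point per array; signals under 1 are drawn at 1 and the grey band is the range of array backgrounds. The top 2 panels show the lines mostly together apart from Col3a1, Postn and Col1a2, and the globins at the bottom lie higher in V6.5 than in Oct4-Gfp cells.

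Endothelial genes were divided. Of 13 endothelial genes tested 7 rose, all by 3-fold or more, and 3 fell. *Kdr* (Flk1), the VEGF receptor of the common progenitor of vessels and blood, was 4.34 and 6.70 in ESCs, 1476 and 1236 in V6.5 and 1089.6 and 1441 in *Oct4-Gfp* somatic cells, at least 85.5-fold higher. *Fli1* and *Erg*, related ETS factors of the vessel and blood programme, were at least 24.0-fold and 5.36-fold higher, and *Flt1* rose by 2.51 ± 0.20, *Ramp2* by 2.00 ± 0.23, *Sox7* by 1.79 ± 0.28 and *Tek* by 1.66 ± 0.31. *Cdh5*, VE-cadherin, did not pass the filter for testing but was above background on all 4 somatic arrays (43.5 to 94.1) and on neither ESC array (1.44 and 10.1). *Pecam1* fell by 0.76 ± 0.22, *Nos3* by 0.87 ± 0.23 and *Plvap* by 2.11 ± 0.20; without ESC replicate 1 only 1 of the 3 falls was called. *Tie1*, *Emcn*, *Cd34*, *Sox18* and *Robo4* were too dim to test, with somatic signals of 12.4 to 19.1, 3.26 to 11.3, 8.95 to 20.4, 20.3 to 52.3 and 6.20 to 15.3. The paper states that endothelial and blood cells of the early embryo express *cKit* too. The sort against cKit may thus have left such cells out, which was not tested.

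Of 17 blood genes on the array 13 were tested and all 13 rose, 12 by 3-fold or more. Without the filter on low values all 17 were tested and 13 were called higher. For 11 of them every somatic array lay above both ESC arrays, whereas *Klf1* and the erythropoietin receptor gene *Epor* overlapped the ESC signals in the *Oct4-Gfp* line. *Hbb-bh1*, an embryonic beta-like globin of primitive red cells, was 16.5 and 30.8 in ESCs, 8303 and 7238 in V6.5 and 1493 and 1259 in *Oct4-Gfp* somatic cells (6.44 ± 0.33, adjusted p = 2.93e-06). *Hba-x*, the embryonic zeta globin, was 2.55 and 5.97 in ESCs, 5185 and 3965 in V6.5 and 875 and 502 in *Oct4-Gfp* cells, at least 114-fold higher, and *Hbb-y* was 2.87 and 1.10 in ESCs, 3738 and 2341 in V6.5 and 539.7 and 221 in *Oct4-Gfp* cells, at least 66.5-fold higher. The adult alpha globin gene *Hba-a1* stayed at or near background (6.88 to 17.2). Upstream of the globins, *Tal1*, which founds the blood programme, rose by 3.50 ± 0.42, *Runx1* by 4.40 ± 0.33, *Lmo2* by 2.86 ± 0.26 and the erythroid factor *Gata1* by 1.86 ± 0.27. Other *Runx1* probe sets rose by 3.65 and 1.42, and those at 0.97 (adjusted p = 0.0522) and 0.73 (adjusted p = 0.1) were not called. *Klf1*, a factor of red cell genes, was 58.6 and 27.8 in ESCs, 592 and 441 in V6.5 and only 87.4 and 52.0 in *Oct4-Gfp* cells. Genes of white cells were at or near background: *Ptprc* (CD45) was 3.11 to 21.5 and *Spi1* (PU.1) 16.9 to 32.3 on the somatic arrays, neither tested. Here too the sort against cKit may have left cells out, so these signals do not describe the whole EB. The summed signal of the list was 3492 to 22234 over the somatic arrays against 522 to 573 over the ESC arrays. With the stricter filter on low values only 8 of these genes were tested, and all 8 rose.

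The promoters of the embryonic globins are shown because their signals in V6.5 and *Oct4-Gfp* somatic cells did not overlap. The difference between lines was called for *Hba-x* (adjusted p = 0.036) and not for *Hbb-y* (adjusted p = 0.0698) or *Hbb-bh1* (adjusted p = 0.0989). The search was for GATAA, the core of sites for GATA factors, and for CCNCNCCC, the core of sites for *Klf1* and related factors, both on either strand in the 250 bases before the start, and the 2 motifs share no letters in the windows shown. GATAA was found in 9 of 13 blood genes with a promoter in the table (69.2%), against 25.5% of all genes, and CCNCNCCC in 9 of 13 (69.2%), against 48.5%. Matches are in capitals, 5′ to 3′ on the strand of the gene, plus for *Hba-x* and minus for *Hbb-y*.
*Hba-x*, chr11:32276468-32276549: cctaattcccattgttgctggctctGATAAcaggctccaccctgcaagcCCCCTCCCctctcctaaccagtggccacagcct
*Hbb-y*, chr7:103853340-103853394: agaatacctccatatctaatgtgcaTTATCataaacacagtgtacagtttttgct
*Hba-x* had 1 match of each kind and *Hbb-y* a single GATAA on the opposite strand, so that the 2 genes with the same order of levels did not share the CCNCNCCC letters in this window.

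The 2 somatic populations were otherwise close to each other. Of 12208 genes 5 (0.0410%) were called higher and 4 (0.0328%) lower in V6.5 than in *Oct4-Gfp* somatic cells, and these 9 are named here after their values were seen. Higher in V6.5 were *Hba-x* (difference 2.75 ± 0.29, adjusted p = 0.036), *Klf1* (2.67 ± 0.30), *Col3a1* (2.04 ± 0.21), *Postn* (1.93 ± 0.21) and the blood group antigen gene *Art4* (1.83 ± 0.19). Lower in V6.5 was *Eomes*, a T-box factor of the streak and trophoblast, with signals of 329.6 and 292 in ESCs, 103 and 140.1 in V6.5 and 815 and 904 in *Oct4-Gfp* cells (difference -2.69 ± 0.17, adjusted p = 0.00454). *Gjb2*, a gap junction gene, was 36.4 and 18.2 in V6.5 and 188 and 142 in *Oct4-Gfp* cells, the laminin receptor gene *Itga6* 284 and 314 in V6.5 and 713 and 744 in *Oct4-Gfp* cells, and the neuronal hydrolase gene *Uchl1* 22.3 and 25.9 in V6.5 and 70.9 and 81.3 in *Oct4-Gfp* cells. The V6.5 and *Oct4-Gfp* signals of each of the 9 genes did not overlap. These calls were fragile. None was made when the fit held only the ESC and somatic arrays, although 4110 probe sets then had an unadjusted p under 0.05, and none without *Oct4-Gfp* somatic replicate 2 (2671 probe sets), and without V6.5 somatic replicate 1 none of the 9 genes was called (for *Eomes* adjusted p = 0.0505). *Eomes* was called in 20 of the 23 settings run and the others in 6 to 9. Line, background and the second sort marker differ together and cannot be told apart.

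**Figure D4:**
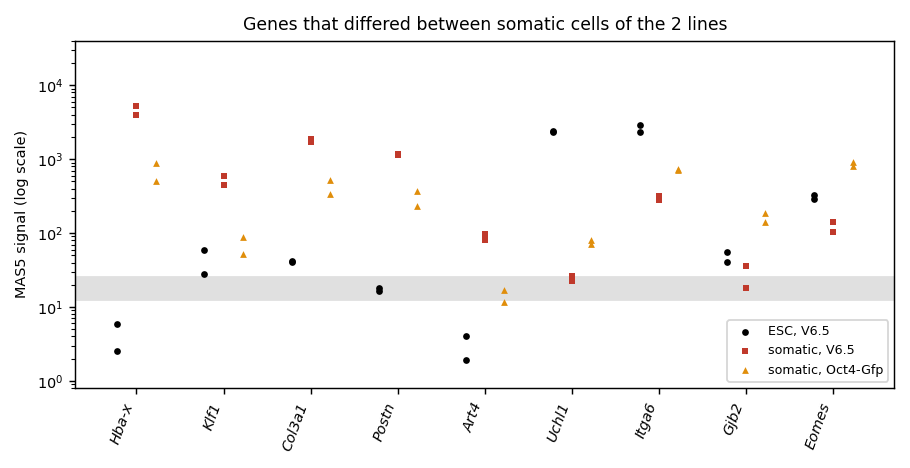
MAS5 signal (log scale) of the 9 genes called different between V6.5 and Oct4-Gfp somatic cells, ordered from highest to lowest in V6.5 relative to Oct4-Gfp, with the ESC arrays for reference; 1 point per array, and the grey band is the range of array backgrounds. Red squares lie above orange triangles for the first 5 genes and below them for the last 4.

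Genes of the streak itself were in part higher than in ESCs. The streak gene *T* (Brachyury) could not be read, having no probe set named for it alone. Of 10 tested 6 rose by 3-fold or more and 2 fell. *Mixl1*, a homeobox gene of the streak, was 91.2 and 76.8 in ESCs, 115 and 209 in V6.5 and 765 and 522 in *Oct4-Gfp* somatic cells (1.75 ± 0.24, adjusted p = 0.000434), the difference between lines not being called (adjusted p = 0.0921). *Evx1*, a target of BMP in the posterior streak, was 22.6 and 30.9 in ESCs, 746 and 963 in V6.5 and 1221 and 1289 in *Oct4-Gfp* cells (4.66 ± 0.15, adjusted p = 5.85e-07), and the streak ligand gene *Wnt3* was at least 28.3-fold and *Lhx1* at least 7.30-fold higher. Genes of the anterior streak and of nascent somitic mesoderm were dim: *Gsc* was 5.72 to 38.9, *Fgf8* 1.98 to 19.6, *Msgn1* 8.01 to 41.2 and *Tbx6* 16.6 to 32.0 on the somatic arrays, none of them tested. *Mesp2* fell by 2.19 ± 0.34, and *Mesp1* was 106 and 102 in ESCs, 97.3 and 91.0 in V6.5 and 143 and 383 in *Oct4-Gfp* cells (adjusted p = 0.223). Over the balanced mean *Eomes* was not called (0.08 ± 0.15, adjusted p = 0.665), since it was lower than ESCs in V6.5 (-1.27 ± 0.17) and above them in *Oct4-Gfp* cells.

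All 9 genes tested of the allantois and extraembryonic mesoderm list rose, 8 by 3-fold or more, with a median change of 3.80. *Bmp5* was 9.74 and 5.76 in ESCs, 4150.0 and 2939 in V6.5 and 2178 and 3648 in *Oct4-Gfp* cells, at least 206-fold higher, and *Bmp4*, which the extraembryonic mesoderm and allantois secrete, was 418 and 304 in ESCs, 3829 and 3117 in V6.5 and 3163 and 3557 in *Oct4-Gfp* cells (3.20 ± 0.22, adjusted p = 1.07e-05). *Tbx4*, a T-box factor of the allantois and later the hindlimb, was 37.9 and 24.8 in ESCs but uneven in somatic cells, 1356 and 5384 in V6.5 and 3374 and 775 in *Oct4-Gfp* cells (5.53 ± 0.65, adjusted p = 0.000177). *Pitx1*, a second hindlimb and posterior gene, was 29.3 and 22.7 in ESCs, 587 and 1129 in V6.5 and 649 and 211 in *Oct4-Gfp* cells (3.80 ± 0.43, adjusted p = 0.000141). In both genes the second V6.5 and the first *Oct4-Gfp* array stood highest. *Vcam1*, which the allantois uses to fuse with the chorion, rose by 1.78 ± 0.29, *Ahnak* by 2.08 ± 0.17 and *Bmp7* by 0.95 ± 0.28. Other probe sets of *Bmp7* gave 0.36 (adjusted p = 0.0416) and -0.12 (adjusted p = 0.69, not called).

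Hox genes, which are switched on in order along the cluster as mesoderm forms at the posterior streak, were raised in all 4 clusters. Of 33 on the array 25 were tested, and 24 of them rose, 23 by 3-fold or more: 5 of 5 tested in the a cluster, 7 of 7 in b, 6 of 7 in c and 6 of 6 in d. The exception was *Hoxc13* (77.9 and 112 in ESCs, 23.4 to 33.9 in somatic cells). Only 9 of the 33 were above background on both ESC arrays, so the count of rises is in part set by the filter. Among the untested genes *Hoxa2* and *Hoxa13* were higher on every somatic array. *Hoxb13* was lower on each (17.2 and 18.3 in ESCs, 2.45 to 16.4 in somatic cells). *Hoxa4*, *Hoxa7*, *Hoxb7*, *Hoxd11* and *Hoxd12* overlapped the ESC signals. Members of the b cluster came up from low ESC signals. *Hoxb1* was 6.09 and 18.5 in ESCs, 196 and 103 in V6.5 and 245 and 346 in *Oct4-Gfp* cells. *Hoxb2* was 1.67 and 6.12 in ESCs, 380.1 and 197 in V6.5 and 317 and 181 in *Oct4-Gfp* cells. *Hoxb4* was 3.46 and 1.57 in ESCs, 1695 and 1065 in V6.5 and 1108 and 1345 in *Oct4-Gfp* cells, at least 84.2-fold higher, *Hoxb5* at least 86.0-fold, *Hoxb3* at least 42.2-fold and *Hoxb6* at least 36.2-fold. *Hoxd9* was 22.7 and 33.9 in ESCs, 2863 and 4046 in V6.5 and 3353 and 2527 in *Oct4-Gfp* cells (6.21 ± 0.28, adjusted p = 1.69e-06), *Hoxd1* 54.1 and 93.1 in ESCs, 1899 and 1788 in V6.5 and 1331 and 1800.0 in *Oct4-Gfp* cells (4.30 ± 0.31, adjusted p = 1.41e-05), and *Hoxc8* at least 48.0-fold higher.

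Several more posterior members varied among arrays of the same line. *Hoxa9* was 11.5 and 22.3 in ESCs, 591 and 2246 in V6.5 and 2144 and 515 in *Oct4-Gfp* cells (5.16 ± 0.64, adjusted p = 0.000225). *Hoxa10* was 4.65 and 16.7 in ESCs, 417 and 1743 in V6.5 and 1077 and 194 in *Oct4-Gfp* cells, *Hoxc10* 232 and 1314 in V6.5 and 1280.3 and 243 in *Oct4-Gfp* cells, and *Hoxd10* 17.2 and 9.26 in ESCs, 114 and 502 in V6.5 and 387 and 77.2 in *Oct4-Gfp* cells. As with *Tbx4* and *Pitx1*, the second V6.5 and the first *Oct4-Gfp* array were the higher of their pairs. Of 10 tested Hox genes of paralogue groups 9 to 13, 6 were over 2-fold apart in this way within both lines, against 2 of 15 in groups 1 to 8 and 32 of 12208 genes (0.262%); in the opposite way there were 0, 0 and 16. The pattern was noticed in these data, and the counts include the genes in which it was seen. They are therefore a description and no test of it. The standard errors of *Hoxa9*, *Hoxa10*, *Hoxa11*, *Hoxc10* and *Hoxd10* were 0.64 to 0.77.

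**Figure D5:**
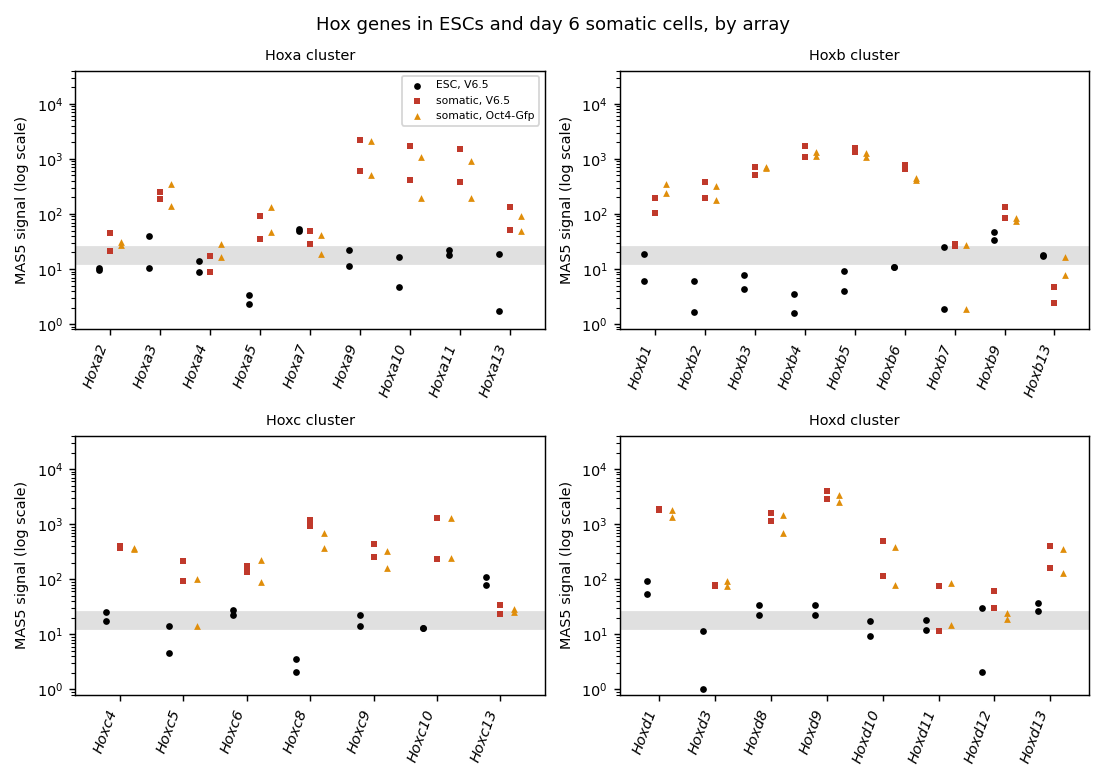
MAS5 signal (log scale) of 33 Hox genes by cluster, ordered by paralogue number, on the 2 ESC, 2 V6.5 somatic and 2 Oct4-Gfp somatic arrays, 1 point per array, with the range of array backgrounds in grey and signals under 1 drawn at 1. ESC points lie mostly at background, and the somatic points of Hoxa9 to Hoxa11, Hoxc10 and Hoxd10 lie several-fold apart within each line.

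Of the other posterior homeobox genes, *Msx1* was 25.8 and 18.3 in ESCs, 4732 and 4137 in V6.5 and 3208 and 4012 in *Oct4-Gfp* cells (6.77 ± 0.21, adjusted p = 5.44e-07), *Msx2* 42.4 and 52.5 in ESCs, 3241 and 2482 in V6.5 and 2518 and 3278 in *Oct4-Gfp* cells (5.53 ± 0.23, adjusted p = 1.24e-06), and *Cdx2*, a regulator of Hox genes in the posterior embryo and of the trophoblast, 25.6 and 29.3 in ESCs, 1874 and 2373 in V6.5 and 3075 and 1722 in *Oct4-Gfp* cells (5.72 ± 0.32, adjusted p = 4.06e-06). Its paralogue *Cdx1* fell, from 137 and 146 to 7.20 to 26.4 (-2.41 ± 0.22, adjusted p = 4.78e-05). With *Evx1* there were 4 rises, and with *Gbx2* 2 falls, among 6 genes tested.

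Signalling genes were counted by pathway. Of 11 BMP ligands and targets tested 10 rose, 7 by 3-fold or more, and none fell (1 did without *Oct4-Gfp* somatic replicate 1), with a median change of 3.20. The ligand genes *Bmp2* and *Bmp5* came up from background, *Bmp2* by at least 56.8-fold. Among targets, *Smad6*, an intracellular BMP inhibitor, was 70.3 and 82.9 in ESCs, 1429 and 1259 in V6.5 and 1478 and 1269.5 in *Oct4-Gfp* cells (3.91 ± 0.13, adjusted p = 5.85e-07), and the inhibitors of differentiation *Id2* and *Id3* rose by 3.29 ± 0.22 and 3.27 ± 0.12. *Id1*, a target that ESCs already express in serum, rose less, from 464 and 404 to 769 to 1049 (0.99 ± 0.13, adjusted p = 0.000268), and *Bambi*, a decoy receptor, rose by 2.85 ± 0.19. Noggin (*Nog*) and *Grem1*, the secreted BMP antagonists, were too dim to test (30.7 to 70.7 and 4.19 to 14.6 in somatic cells).

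Of 12 Wnt ligands and targets 9 rose, 7 by 3-fold or more, and 1 fell. *Wnt5a*, the non-canonical ligand of posterior mesoderm, was 22.8 and 25.7 in ESCs, 2149 and 2956 in V6.5 and 3943 and 1619 in *Oct4-Gfp* cells (6.02 ± 0.34, adjusted p = 4.23e-06), *Wnt2* was at least 19.3-fold higher and *Wnt5b* rose by 2.30 ± 0.20. The feedback inhibitor genes *Dkk1* (at least 41.2-fold higher), *Nkd1* (1.97 ± 0.26, adjusted p = 0.000299) and *Axin2* (1.01 ± 0.17, adjusted p = 0.00132) were raised with *Lef1*, but *Sp5*, a direct target in the streak, fell from 189.6 and 146 to 10.3 and 8.21 in V6.5 and 44.9 and 92.2 in *Oct4-Gfp* cells (-2.05 ± 0.33, adjusted p = 0.000932). A second probe set of *Axin2* was not called (0.03, adjusted p = 0.891). The falls in this list numbered 2 without either V6.5 somatic replicate or without *Oct4-Gfp* somatic replicate 1. In the retinoic acid list of 7 tested genes, *Cyp26a1*, which degrades the ligand at the posterior end of the embryo, rose from 14.2 and 21.5 to 487 and 451 in V6.5 and 934 and 865 in *Oct4-Gfp* cells (4.35 ± 0.21, adjusted p = 2.33e-06). *Dhrs3* rose by 2.46 and *Crabp2* from 758 and 683 to 1291 to 2728, *Stra8* and *Rarg* fell by 3.31 and 0.77 (the fall of *Rarg* was not called without ESC replicate 2), and *Aldh1a2*, which makes the ligand in trunk mesoderm, was 63.9 and 60.4 in ESCs and 19.4 to 87.4 in somatic cells (adjusted p = 0.615).

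Markers of somites were dim or lower than in ESCs. Of 15 paraxial mesoderm genes on the array 3 were tested, and all 3 fell: *Tcf15* (Paraxis), which ESCs also express, from 2489.6 and 2154 to 56.1 to 101 (-4.79 ± 0.27, adjusted p = 4.1e-06), the Notch ligand gene *Dll1* from 349.6 and 252 to 16.7 to 94.9 (-2.62 ± 0.28, adjusted p = 9.94e-05) and *Lfng* by 1.11 ± 0.16. Of the rest, *Meox1* was 12.6 and 4.58 in ESCs and 26.5 to 94.4 in somatic cells, *Pax3* 8.44 and 4.45 in ESCs and 9.38 to 59.5 in somatic cells, *Foxc1* 11.1 and 4.12 in ESCs and 20.9 to 81.3 in somatic cells and *Foxc2* 28.4 and 36.5 in ESCs and 30.0 to 136 in somatic cells, while *Meox2*, *Uncx*, *Ripply2* and *Myf5* were below background on all 6 arrays. Without the filter on low values 4 genes of this list were called higher. In the intermediate mesoderm list *Wt1*, a factor of kidney and of the outer layer of heart and coelom, was 21.9 and 7.90 in ESCs and 131 to 267 in somatic cells (2.68 ± 0.29, adjusted p = 0.000111), *Six2* was at least 4.53-fold higher, *Lhx1* is given above and *Eya1* rose by 0.59 ± 0.17. With the Gapdh ratio as a covariate 2 of these 4 rises were called. *Sall1* fell by 0.48 ± 0.17 (adjusted p = 0.0423), a call that was lost when any 1 of the ESC, V6.5 iPGC or V6.5 somatic arrays or *Oct4-Gfp* somatic replicate 1 was left out. A second probe set of *Sall1*, less bright, fell more (-1.60, adjusted p = 7.73e-05). *Osr1* and *Pax8*, which would mark this mesoderm more strictly, were not tested (1.83 to 35.3 and 2.73 to 5.44 in somatic cells).

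Endoderm genes were divided. Of 11 definitive endoderm genes on the array 5 were tested, of which *Sox17* rose from 9.72 and 16.3 to 105 and 82.8 in V6.5 and 146 and 221 in *Oct4-Gfp* cells, at least 8.51-fold, and the chemokine receptor gene *Cxcr4*, which mesoderm and vessels also express, from 172 and 212 to 2319.6 to 3350.3 (3.76 ± 0.14, adjusted p = 7.43e-07). *Foxa2*, *Foxa1*, *Cer1* and *Shh* were not tested, with somatic signals of 18.1 to 51.3, 10.9 to 26.5, 6.30 to 21.7 and 19.3 to 25.8. *Trh*, which ESCs express, fell from 7055 and 7214 to 32.0 to 156 (-6.04 ± 0.37, adjusted p = 6.33e-06). In the visceral endoderm list 4 of 9 tested rose and 2 fell. *Ttr*, transthyretin, was at least 24.6-fold higher (0.311 and 0.256 in ESCs, 267 and 721 in V6.5 and 529 and 192 in *Oct4-Gfp* cells), the endocytic adaptor gene *Dab2* rose from 39.0 and 40.6 to 1317 to 2066 (4.85 ± 0.18, adjusted p = 7.7e-07), *Apob* was at least 4.57-fold higher and *Rbp4* rose by 0.41 ± 0.15. *Afp*, alpha-fetoprotein, the defining marker, was above background on 1 of the 2 ESC and 1 of the 4 somatic arrays (19.2 and 14.7 in ESCs, 8.73 to 20.1 in somatic cells), *Hnf4a* was 10.8 to 73.0 in somatic cells and untested, and *Apoa2* fell by 4.39 ± 0.19.

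Most of the neural genes that could be tested were lower than in ESCs. Of 10 neural ectoderm genes tested 7 fell, 5 of them by 3-fold or more, and 3 rose, with a median change of -2.21. *Sox1*, the first marker of neural plate, was 187 and 155 in ESCs and 1.98 to 19.0 in somatic cells, at least 8.35-fold lower, and *Olig2*, *En2* and *Neurod1* were 3.35 to 16.8, 2.58 to 25.4 and 13.5 to 22.3 in somatic cells from ESC signals of 197 and 207, 219 and 152 and 274 and 325. *Tubb3*, neuronal tubulin, fell from 2137 and 2036 to 184 to 395 (-2.87 ± 0.20, adjusted p = 1.31e-05). The rises were *Fabp7* (at least 9.10-fold), *Zic1* (at least 4.40-fold) and *Nes* (163 and 172 to 242 to 494), the last also a gene of mesenchyme and vessels. *Pax6* was not tested (53.5 and 65.4 in ESCs, 17.4 to 34.6 in somatic cells). With the stricter filter 5 genes of this list were tested, of which 3 fell, 2 of them by 3-fold or more, and 2 rose. Without the filter on low values 15 were tested, of which 8 fell and 3 rose. The counts in this list thus depended on the filter.

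In the neural crest list 4 of 7 tested rose and 2 fell. The risers *Snai2*, *Ets1* (51.5 and 43.2 in ESCs, 1405 to 2009.7 in somatic cells), *Sox9* (at least 18.3-fold) and *Ednrb* (at least 12.7-fold) are genes that mesoderm also uses. The genes more restricted to crest were not raised: *Sox10* was 3.33 to 37.4 in somatic cells and untested, *Tfap2a* was not called (75.3 and 82.6 against 16.3 to 115), and *Erbb3* and *Ngfr* fell by 2.30 ± 0.26 and 1.31 ± 0.41, the fall of *Ngfr* being lost without either ESC replicate or without *Oct4-Gfp* somatic replicate 2. Surface ectoderm genes gave 2 rises and 3 falls among 7 tested: *Dlx3* rose from 76.7 and 105 to 221 to 364 and *Krt14* from 48.0 and 29.8 to 79.6 to 125, *Krt17* was at least 14.5-fold lower, *Grhl3* and *Grhl2* fell by 3.55 and 2.45, while *Trp63* and *Krt5* were untested at 8.70 to 21.0 and 4.75 to 23.7. Of 5 trophoblast genes tested *Plac1*, a placental gene, was at least 225-fold higher (0.339 and 6.76 in ESCs, 3816 and 4314 in V6.5 and 2873 and 2917 in *Oct4-Gfp* cells), *Cdx2* rose as above, *Ascl2* and *Tfap2c* fell, and *Esx1* was not called. *Elf5* and *Tpbpa*, more specific to trophoblast, were at background (2.71 to 11.4 and 3.78 to 19.0).

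The largest rises over all genes were mostly genes that came up from background in ESCs. *Aplnr*, the receptor for apelin and elabela in nascent mesoderm and vessels, was 0.579 and 3.04 in ESCs, 5884 and 3664 in V6.5 and 4938 and 6718 in *Oct4-Gfp* cells, at least 340.0-fold higher. *Nrp1*, a co-receptor for VEGF and semaphorins, was 6.65 and 10.9 in ESCs, 7121 and 5601 in V6.5 and 4038 and 5577 in *Oct4-Gfp* cells, at least 359.9-fold higher. *Asb4*, a ubiquitin ligase subunit of the early vasculature, was at least 312-fold, *Rgs5*, a marker of pericytes, at least 275-fold and *Prdm6*, a regulator of smooth muscle, at least 247-fold higher. With the netrin receptor gene *Unc5c* (10.8 and 25.4 in ESCs, 4818 to 5481 in somatic cells, 7.30 ± 0.22, adjusted p = 4.66e-07) and *Snai2*, *Plac1*, *Foxf1* and *Bmp5* above, these were the 10 largest, and none was called different between the somatic lines (adjusted p of 0.484 or more each).

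The iPGCs sorted from the EBs give a second reference for the somatic cells. Of 12208 genes 3634 (29.8%) were higher and 4109 (33.7%) lower in somatic cells than in iPGCs. *Pou5f1* was 2419 to 3831 and *Nanog* 6208 to 6839 over the 4 iPGC arrays, differences of -5.55 ± 0.36 and -4.90 ± 0.21. *Aplnr* was 74.2 to 275 in iPGCs (4.98 ± 0.35), *Hand1* 71.4 to 309 (4.81 ± 0.19) and *Kdr* 22.8 to 73.5 (4.26 ± 0.22). *Sall4* and *Lin28a* were 8776 to 10264 and 4499 to 5577. This comparison and the one with ESCs share the somatic arrays, so that they are not independent of each other.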

How the data were processed

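RNA of sorted cells was extracted with an RNeasy micro kit, amplified with NuGEN Ovation reagents and hybridised to Affymetrix Mouse 430 2.0 arrays. The deposited values are intensity signals on a linear scale, 1 per probe set and array, for 45101 probe sets; the labels name MAS5 for their processing, and the authors had scaled each array to the same 2%-trimmed mean. All 10 columns were used (columns not used: 0). A probe set was named from the platform annotation, in which 34958 have 1 symbol, 932 several and 9211 none, and those with several or none were not named.

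Signals were taken as log2(signal + 14.8), the offset being the 25th percentile of all signals. A probe set was tested where at least 2 of 10 arrays had it above the median signal of that array (26372 probe sets, 12208 genes; a gene is the probe set with the highest mean). A limma model (version 3.58.1, R 4.3.3) with 5 groups over the 10 arrays gave the contrasts, the somatic mean being balanced over lines, with Benjamini-Hochberg adjustment over all probe sets tested. Background was the 95th percentile of 44 olfactory receptor probe sets on each array. A group below it on every array is given by a bound. The procedure was tested on simulated data. The number of arrays limits the precision. Figures were drawn with matplotlib 3.10.9.

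The members and gene lists were chosen with earlier results of these data known. Genes named are the 10 largest changes each way, the first 3 of each list, up to 6 further members with the largest changes and all pluripotency genes, with others added after their values were seen. Alternatives were the offset, the filter, the normalization, the arrays in the fit, the moderation, a replicate block, the Gapdh ratio, the mean of all probe sets of a gene and each array left out in turn. Promoter sequence was RefSeq's, build GRCm38.p6. The labels give a range of 3 to 6 days for EB growth, and the day 6 time point comes from the study's methods.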

Additional observations from a re-analysis of the deposited data

Results flagged for a closer look

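For 9 genes, 5 of them in the gene lists (*Col3a1*, *Hba-x*, *Klf1*, *Postn* and *Eomes*), the level in somatic cells differed between the lines by the limma test of the difference. The V6.5 minus *Oct4-Gfp* somatic log2 difference was 2.04 for *Col3a1*, 2.75 for *Hba-x*, 1.93 for *Postn*, 2.67 for *Klf1*, 1.83 for *Art4*, -2.69 for *Eomes*, -2.12 for *Gjb2*, -1.25 for *Itga6* and -1.22 for *Uchl1*, and all 9 were uncalled without *Oct4-Gfp* somatic replicate 2 or without V6.5 somatic replicate 1.

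Among the 4 somatic arrays a single array stood apart from the other 3 for 17 of the genes examined. The criterion was Dixon's 95% critical value for the gap to the nearest array over the range, which by its definition chance alone exceeds in about 1 group in 20. The genes examined were 235 named genes with a tested probe set and some too dim to test. At that rate many of the 17 would be flagged by chance alone, so the list below is a description. The first V6.5 array was lowest for the pluripotency genes *Dppa2* (17.0), *Dppa5a* (229.8), *Fbxo15* (26.6), *Gbx2* (13.5) and *Lefty2* (49.0) and for the homeobox gene *Cdx4* (14.7). The second V6.5 array was lowest for *Tnnt2* (925), *Hoxb3* (509) and *Tjp3* (42.4). The first *Oct4-Gfp* array was highest for *Foxd3* (24.2), *Rarb* (86.3) and *Sox9* (313). The second *Oct4-Gfp* array was highest for *Cdh1* (924) and lowest for *Actc1* (301.6), *Cald1* (5728), *Erg* (42.4) and *Pim1* (1098).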

How the results depend on the processing

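Of 5620 values of 235 genes under 24 alternatives, 5485 kept their direction and side of the threshold, 63 lost the call, 44 gained one and 28 changed sign. With the Gapdh ratio as a covariate the probe sets called numbered 5519 higher and 4276 lower, and 4416 lower within V6.5 alone. The median standard error was 0.299 there against 0.171 in the main fit, and the cause of the lost calls was not tested. Leaving out 1 array gave 7053 to 9131 higher and 5936 to 7974 lower, and 6068 to 8224 and 5381 to 7341 within V6.5 alone. Median centring took the share of higher calls from 53.0% to 42.1%, with the median change over probe sets going from 0.06 to -0.15. Against iPGCs, leaving out 1 array gave 7300 to 8373 higher and 6201 to 6895 lower. With the Gapdh ratio as a covariate the rises numbered 1 in place of 2 for definitive endoderm and the falls 1 in place of 3 for endothelial genes. Within V6.5 alone the rises numbered 8 in place of 9 for smooth muscle and for allantois genes and 9 in place of 10 for BMP genes. They numbered 3 in place of 4 for visceral endoderm and 2 in place of 3 for LIF genes. The falls there numbered 3 in place of 2 for streak genes and 2 in place of 1 for Wnt genes. They numbered 1 in place of 2 for neural crest and for retinoic acid genes. The somatic lines differed in 15 probe sets higher and 7 lower in V6.5. This became 12 lower with a floor, 26 higher with the offset doubled, 1 and 1 without a filter, 9 higher with the stricter filter, 3 and 2 with the background filter, 46 and 17 under median centring, 0 and 0 with ESC and somatic arrays only, 28 and 36 with limma-trend, 4 and 1 with the replicate block, 1 and 2 with the Gapdh ratio, and 0 to 8 in each direction without 1 array. With the replicate number as a block the calls against ESCs were 8564 higher and 7584 lower (7604 and 6896 within V6.5 alone), and *Sall1* lost its call; same-numbered arrays did not deviate together (r of -0.292 to 0.262 over 10 pairs of groups), so the numbers were not taken to pair the samples.

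Of the 28 sign changes 1 concerned a gene called against ESCs, and 1, *Eomes* in V6.5 arrays alone, passed the threshold after the change. Quantile normalization gave 0.079 for *Lin28a*, -0.049 for *Sox3* and -0.045 for *Eomes*. Median centring gave -0.0079 for *Sall4*, -0.17 for *Trim71*, -0.075 for *Sox3*, -0.13 for *Eomes* and -0.046 for *Crabp1*. V6.5 arrays alone gave -0.67 for *Fgf5*, -1.27 for *Eomes*, 0.056 for *Perp* and -0.085 for *Crabp1*. The Gapdh ratio gave -0.54 for *Fgf5*, -0.26 for *Cited1*, 0.034 for *Esx1* and 0.075 for *Aldh1a2*. The mean of all probe sets gave -0.011 for *Sall4*, -0.019 for *Lifr* and -0.036 for *Eomes*.

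Leaving out 1 array gave -0.25 to 0.72 for *Fgf5*, -0.019 to 0.18 for *Eomes*, -0.11 to 0.018 for *Perp*, -0.65 to 0.17 for *Tfap2a*, -0.45 to 0.11 for *Aldh1a2*, -0.053 to 0.15 for *Trim71* and -0.14 to 0.42 for *Sox3*.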

Other observations

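Some genes differed between replicates of the same line in a matching way, a pattern noticed in these data, and those named here were chosen after their values were seen. The second V6.5 and the first *Oct4-Gfp* somatic array were the higher of their pairs for *Hoxa11* (376 and 1535 in V6.5 and 901 and 191 in *Oct4-Gfp* cells), *Hoxd13* (163 and 400.3 and 357 and 131), the limb and mesenchyme gene *Prrx1* (159 and 441 and 458 and 139) and the Wnt modulator gene *Sfrp1* (636 and 2123 and 1472 and 655). In ESCs *Sfrp1* was 2308 and 2240.3. What sets these arrays apart was not tested. The Gapdh ratios of the 2 higher arrays were 1.73 and 1.65, and those of the 2 lower arrays were 1.74 and 2.05.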
